A study of Drosophila melanogaster with 3 samples.

Results

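The genes described here encode the initiation, elongation and release factors of cytosolic translation in Drosophila melanogaster. They are the 54 protein-coding genes, of 13945 on the 6 chromosome arms used, whose symbol in the Ensembl annotation of dm6 starts with eIF (44 genes), eEF (8 genes) or eRF (2 genes). The rule uses the name alone and no measured value. The measurement was chromatin immunoprecipitation with sequencing of Nf-YB in whole, mixed-sex embryos of 0 to 24 h. The embryos, of pooled sexes, came from the transgenic strain Nf-YB-GFP, which makes Nf-YB with a C-terminal GFP, and the precipitation used an antibody against GFP on chromatin sonicated to 200 to 800 bp. The antibody label itself reads Nf-YB. All 3 biological replicates, each with 1 technical replicate, carry this transgene and form 1 group, so no condition was compared with another. The sources used here give neither the promoter that drives the transgene nor the state of the endogenous gene. A whole embryo holds all cell types of its age, so binding in few cells and weak binding in many cannot be told apart.

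Translation starts when eIF2 brings the initiator tRNA to the small ribosomal subunit and the eIF4 factors bring the mRNA by its cap. The eIF3 complex holds these parts together, eIF5 triggers GTP hydrolysis on eIF2, and eIF5B joins the large subunit. Then eEF1 and eEF2 drive elongation, and eRF1 with eRF3 ends it at the stop codon. Nf-YB is a subunit of NF-Y, a trimer known to recognise the CCAAT box. In flies, genes of the translation machinery are known for start sites in a pyrimidine-rich element called TCT and for promoters with the DNA replication-related element TATCGATA, here DRE. A gene was counted as bound when the summit of a peak in the authors' optimal list of reproducible peaks lay no more than 500 bp from any start site of transcription (TSS) annotated for that gene. Rank 1 is the peak with the highest deposited signal among 6221.

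The sequences at 5 of the summits are shown because each holds CCAAT, the box NF-Y is known for, or DRE close to the summit. Each is read from the RefSeq copy of dm6 on the strand of the named gene, centred on the optimal summit, and the capitals mark DRE or the CCAAT box, which in both cases lies on the other strand and so is printed as its reverse complement. The stretches lie at chr3R:24109132-24109232 for eIF4EHP (minus strand), chrX:1162074-1162174 for eIF4E7 (minus), chr3R:29220089-29220189 for eEF1gamma (plus), chr3L:3222982-3223082 for eIF1 (plus) and chr3R:4433887-4433985 for eIF3a (minus).
eIF4EHP: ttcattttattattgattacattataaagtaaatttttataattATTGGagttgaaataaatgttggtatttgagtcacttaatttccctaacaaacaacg
eIF4E7: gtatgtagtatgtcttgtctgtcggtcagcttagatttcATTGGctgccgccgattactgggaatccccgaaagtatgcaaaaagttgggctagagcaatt
eEF1gamma: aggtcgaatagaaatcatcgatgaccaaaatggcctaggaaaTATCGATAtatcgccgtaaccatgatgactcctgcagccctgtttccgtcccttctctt
eIF1: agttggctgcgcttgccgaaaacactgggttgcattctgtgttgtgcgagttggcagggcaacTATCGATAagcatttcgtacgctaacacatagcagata
eIF3a: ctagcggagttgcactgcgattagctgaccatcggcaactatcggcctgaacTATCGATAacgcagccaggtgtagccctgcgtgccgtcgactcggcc
As printed, the CCAAT box began 6 bp before the summit at eIF4EHP and 11 bp before it at eIF4E7. The DRE began within 13 bp of the summit at the other 3.

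Start sites with the pyrimidine letters CTTT (in capitals) are shown for 2 bound genes, eEF2 and eIF4A, and 2 unbound ones, eIF3f1 and eIF3i, from 15 bases before the TSS to 14 after it on the strand of the gene. They lie at chr2L:21682102-21682131 (minus), chr2L:5981749-5981778 and chr2L:5982579-5982608 (both plus), chr3R:4714168-4714197 (minus) and chr2L:4967761-4967790 (minus), in the order printed.
eEF2: gtcgctgcagcgcctcgctCTTTcctgtcg
eIF4A: cttttgcaagatggagcctCTTTtgcttgg
eIF4A: cctagctatcgCTTTcggtctcatacgtaa
eIF3f1: cccgcactatcgataggccCTTTtcttgca
eIF3i: taggccacggtcacactgctCTTTtggcgt
The 3 genes other than eIF4A are shown at 1 start site each, and at eIF4A the second stretch is the start site at which its peak lies, the first its most upstream one.

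Of the 54 translation factor genes, 19 were bound (35.2%, exact interval 22.7 to 49.4), beside 21.6% of all protein-coding genes (3017 of 13945). The highest-ranked peaks lay at the cap-binding protein genes eIF4EHP and eIF4E7, at the ribosome subunit factor eIF6 and at the elongation factor gene eEF1gamma. Among the 6221 highest peaks of each replicate, 16 members were bound in replicate 1, 16 in replicate 2 and 18 in replicate 3, a mean of 16.7 ± 1.15 (SD, n = 3). The same replicates gave 21.1%, 19.0% and 22.6% of all protein-coding genes, beside 29.6%, 29.6% and 33.3% of the members. The members' share was above the share of all genes in each of the 3 replicates. No set test was made, since genes of 1 experiment are not replicates.

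Of the 19 bound genes, 13 were bound in all 3 replicates, 5 in 2 and 1 in a single replicate, and the share in all 3 (68.4%) stood beside 63.4% of all bound protein-coding genes. That count takes any promoter peak of the gene. Among the 6221 highest peaks of each replicate, a summit within 100 bp of the strongest optimal summit was found in all 3 at 11 genes (57.9%, beside 56.1%). Of the 35 genes without an optimal promoter peak, none had a promoter peak among the 6221 highest of any replicate. Among all 13945 protein-coding genes, 4052 had one in at least 1 replicate, beside 19 of the 54 members. Of the 3017 genes in the optimal list, 22 had none in any replicate, so the rest of the 4052 lay outside that list. The share among all genes outside the list was not computed, so the absence at the 35 members is not shown to be particular to them. The weakest bound member, eIF3m, ranked 5104. The strongest member outside, eIF2Bepsilon, had its best promoter peak at rank 7560 of the pooled list. In replicate 1 its best promoter peak ranked 6319, just beyond the 6221 highest. The bound summit farthest from a TSS lay at 309 bp (eIF1), and the optimal summit nearest to the TSS of an unbound member lay at 690 bp (eIF2Bbeta), so no member sat at the edge of the window.

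**Figure D1:**
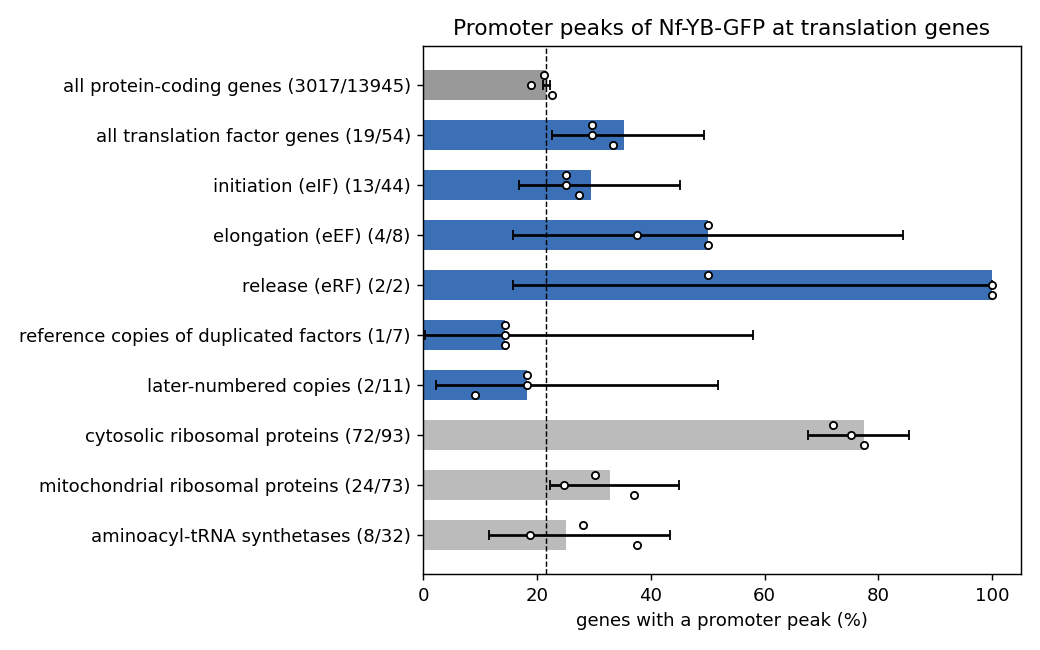
Percentage of genes with an optimal promoter peak, for all protein-coding genes, the translation factor genes and their classes, and related gene groups. Bars give the optimal list with exact 95% intervals, open points the 3 replicates from replicate 1 (top) to 3, and the dashed line marks 21.6%; the members stand at 35.2% and cytosolic ribosomal protein genes at 77.4%.

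By class, 13 of 44 initiation factor genes (29.5%, interval 16.8 to 45.2), 4 of 8 elongation factor genes (interval 15.7 to 84.3) and both release factor genes were bound. In the replicates these counts were 11.3 ± 0.577, 3.67 ± 0.577 and 1.67 ± 0.577 (SD, n = 3). The share of all protein-coding genes in the optimal list was 21.6%. The intervals of the 3 classes overlap widely. The classes hold too few genes for their order to be read.

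Among elongation factors, eEF1gamma (FBgn0029176), a structural subunit of the exchange factor that recharges eEF1A, held the strongest peak, at 3R from 29219967 to 29220254. The peak ranked 1030 in the optimal list and 1206, 1270 and 901 in replicates 1, 2 and 3, with the summit 33 bp upstream of the TSS. The signal was 2.61 times the list median. eEF2 (FBgn0000559), the translocase, followed at rank 1948 on 2L from 21682073 to 21682262, its summit 14 bp before a TSS, in 5' UTR sequence, and ranks of 2469, 2507 and 1651. Both genes ranked within the 6221 highest peaks of each replicate.

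eEF5 (FBgn0285952), the hypusine-carrying factor formerly named eIF5A, ranked 3429 on 2R from 24057619 to 24058062, 12 bp upstream of a TSS. Its ranks were 3465, 11383 and 2718, so replicate 2 lay outside the 6221 highest. eEF1alpha1 (FBgn0284245), which delivers aminoacyl-tRNA to the ribosome, has 4 annotated TSSs and held 2 optimal promoter peaks, at ranks 3940 and 5430, 52 and 64 bp upstream of 2 TSSs. The stronger one, on 2R from 11891978 to 11892112, is intronic. The strongest promoter peak of the gene ranked 5191, 3347 and 4160 in the replicates. At all 4 bound elongation factor genes the summit was upstream and less than 100 bp away.

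The other 4 elongation factor genes were not bound. eEF1beta and eEF1delta, exchange subunits of the complex that holds eEF1gamma, had no optimal promoter peak. The strongest promoter peak of eEF1delta ranked 14121 in the pooled list, and eEF1beta had none there and 1 in replicate 1, at rank 8202. eEF1beta had an optimal peak inside the gene, ranked 4752, and its summit was 1027 bp from the TSS. eEFSec, which delivers selenocysteine tRNA, ranked 11199 in the pooled list.

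Both release factor genes were bound. eRF1 (FBgn0036974), which reads the stop codon, ranked 3483 on 3L from 20348059 to 20348502, 74 bp upstream, with ranks of 5422, 5977 and 2744 in the replicates. A further optimal peak at rank 2311 lay inside the gene away from its TSSs. eRF3 (FBgn0020443), its GTPase partner, ranked 2754 on 2L from 12433982 to 12434425, 248 bp upstream, with ranks of 7425, 2346 and 2153. In replicate 1 no summit lay within 100 bp of this one, and the best promoter peak was 78 bp from the TSS. A further optimal peak of eRF3, at rank 5900, lay 42 bp upstream of the TSS. The stronger eRF3 summit was nearer to the start of SC35, a splicing factor gene read in the other direction, at 166 bp.

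Initiation factors of the early steps were bound unevenly. eIF1 (FBgn0035423), which guards start codon choice, held 2 optimal peaks, at rank 2220 (3L from 3222898 to 3223116, 309 bp upstream) and at rank 2819, 22 bp upstream. Its ranks in the replicates were 2518, 2385 and 2128, a narrow range. The stronger summit lay 72 bp from the start of the ribosomal protein gene RpL28, whose TSS is 381 bp away on the other strand. eIF1A, its partner in scanning, was not bound and ranked 17679 in the pooled list.

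None of the 3 genes of eIF2, the carrier of initiator tRNA, and none of the 5 genes of eIF2B, its exchange factor, was bound. The share of all protein-coding genes was 21.6%. No replicate had a promoter peak at any of these 8 genes among its 6221 highest, and eIF2Bepsilon came nearest, at rank 6319 in replicate 1. The best pooled promoter ranks were 13880 for eIF2alpha, 10960 for eIF2beta, 7560 for eIF2Bepsilon, 8278 for eIF2Bgamma, 17452 for eIF2Bdelta and 28372 for eIF2Bbeta. eIF2gamma and eIF2Balpha had none. With so few genes, exact intervals on these shares of 0 reach 70.8% for eIF2 and 52.2% for eIF2B. In the whole pooled list 2 of 3 eIF2 genes and 4 of 5 eIF2B genes thus had a weaker promoter peak, beside 48.1% of all protein-coding genes.

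The 3 factors outside these complexes, eIF2A, eIF2D and eIF6, were bound. eIF2A (FBgn0037135) ranked 4014 on 3L from 21824723 to 21825166, 20 bp upstream of an internal TSS, with ranks of 4295, 3169 and 4662. eIF2D (FBgn0041588), which acts in reinitiation and recycling, ranked 5050 on 3R from 29151715 to 29152158, 143 bp upstream. Its ranks were 7610, 7872 and 4400, so it was bound in replicate 3 alone. eIF6 (FBgn0034915), which keeps the large ribosomal subunit from joining too early, ranked 868 on 2R from 23850265 to 23850554, 103 bp upstream. The summit lay in an exon annotated outside the eIF6 gene. The replicate ranks of eIF6 were 1088, 1132 and 694, high in every replicate.

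Of the 16 genes of eIF3, the scaffold complex, 4 were bound (25%, interval 7.27 to 52.4), near the 21.6% of all protein-coding genes. eIF3h (FBgn0022023) ranked 2608 on 2L from 5052406 to 5052524, 270 bp downstream of a TSS, and a peak at rank 3343 lay 63 bp downstream. The strongest promoter peak of the gene ranked 3361, 3193 and 1742 in the replicates, and in replicate 1 it lay 23 bp downstream. eIF3c (FBgn0034258) ranked 3441 on 2R from 17665403 to 17665846, 53 bp upstream, with ranks of 5108, 5423 and 2589. Both were bound in all 3 replicates, and replicate 3 gave the highest place to each.

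eIF3a (FBgn0037249) ranked 4184 on 3R from 4433714 to 4434157, 41 bp upstream, with ranks of 4843, 9801 and 3583. Its summit lay 29 bp from the start of CG1074, whose TSS is 70 bp away on the other strand. eIF3m (FBgn0033902) ranked 5104 on 2R from 14164603 to 14165046, with the summit at the TSS itself and ranks of 9668, 4386 and 4399. Each of these 2 genes was bound in 2 replicates. Among the other subunits, eIF3k, eIF3d1, eIF3j, eIF3l, eIF3b and eIF3g1 had their best pooled promoter peak at ranks 8796, 10287, 12092, 15565, 18122 and 29276. eIF3e, eIF3f1, eIF3i, eIF3d2, eIF3f2 and eIF3g2 had none in any list.

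Of the 13 eIF4 genes, 4 were bound (30.8%, interval 9.09 to 61.4), beside 21.6% of all protein-coding genes. eIF4EHP (FBgn0053100) encodes a cap-binding protein known in fly embryos to repress the mRNAs of caudal and hunchback. Its peak was the strongest at any member, ranked 481 on 3R from 24108972 to 24109413, 222 bp upstream, with 6.36 times the median signal. The replicates ranked it 577, 631 and 346. The summit lay 154 bp from the start of CG18428, which is read in the other direction and is thus the nearer gene. The eIF4EHP gene also held 2 optimal peaks away from its TSS, the stronger at rank 4231. It was also the one member among the 622 highest optimal peaks, beside 9.31% of all bound protein-coding genes.

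eIF4E7 (FBgn0040368), a later-numbered copy of the cap-binding protein gene, ranked 979 on X from 1161993 to 1162290, in an intron 265 bp downstream of its TSS. Its ranks were 898, 963 and 1333. eIF4A (FBgn0001942), the RNA helicase that unwinds the mRNA leader, ranked 3076 on 2L from 5982328 to 5982771, 44 bp upstream of an internal TSS. Its ranks were 2410, 3485 and 4360. eIF4G2 (FBgn0260634), a scaffold copy known to act in the male germ line, ranked 4742 on 3R from 23818982 to 23819425, 33 bp downstream, with ranks of 3224, 6121 and 8128. In replicate 3 the peak at 8128 lay 146 bp downstream, and the summit nearest to the optimal one, at 88 bp, ranked 8823. CG33111 is annotated with the same TSS, so the peak cannot be given to either gene alone.

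Among unbound eIF4 genes, eIF4E1, the main cap-binding protein gene, had its best pooled promoter peak at rank 8398 and eIF4H1, a helicase cofactor gene, at 10173. eIF4G1, the main scaffold, which lies on chromosome 4, eIF4H2, eIF4E3, eIF4E4, eIF4E5 and eIF4E6 had none in any list. eIF4B, another helicase cofactor gene in the proximal part of 3L, had 1 in replicate 3, at rank 22937, and its nearest optimal summit was 2628291 bp away. In the last step, eIF5B (FBgn0026259), the GTPase of subunit joining, was bound at rank 2366 on 3L from 3460545 to 3460988, between its 2 TSSs and 164 bp from the nearer. The strongest promoter peak of the gene ranked 3683, 2533 and 2049 in the replicates. In replicate 1 that peak lay 31 bp upstream of a TSS, and the summit nearest to the optimal one, at 68 bp, ranked 10682. A further 4 optimal peaks, the strongest at rank 2634, lay inside the gene. eIF5, which triggers GTP hydrolysis on eIF2, had 1 promoter peak, in replicate 1 at rank 11000.

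**Figure D2:**
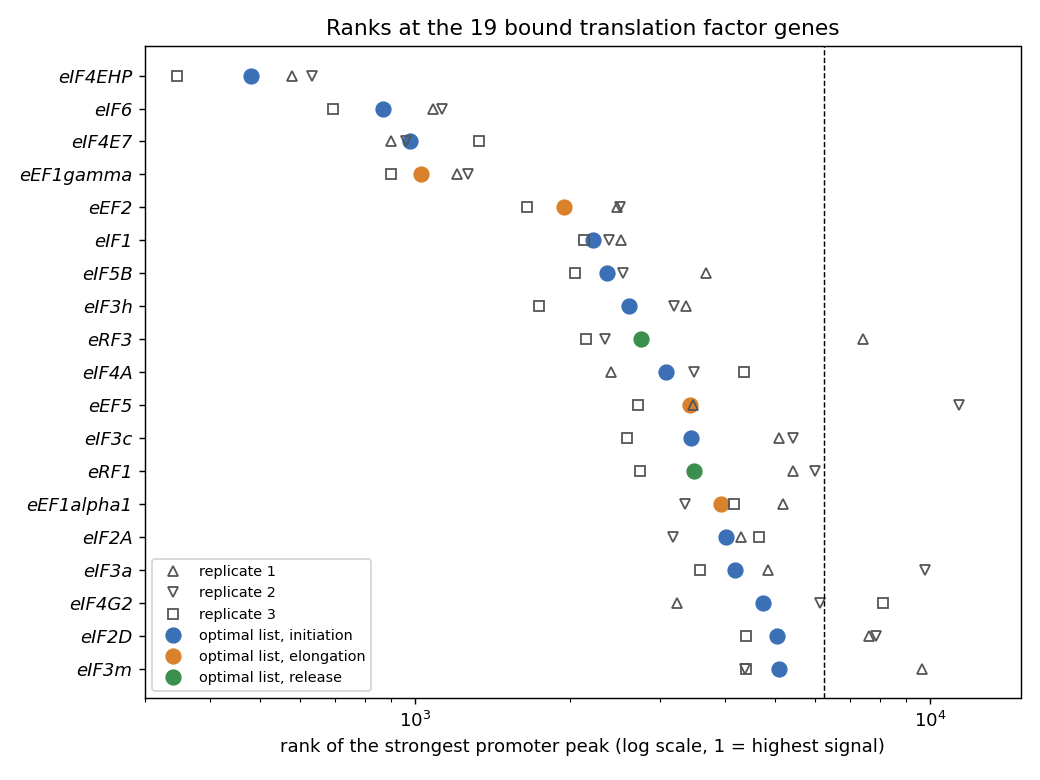
Rank of the strongest promoter peak (log axis, 1 = highest signal) at each of the 19 bound genes in the optimal list (filled, coloured by class) and in the 3 replicates (open symbols). The dashed line marks rank 6221; eIF4EHP stands first at 481 and eIF3m last at 5104, and 6 genes have a replicate beyond the line.

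**Figure D3:**
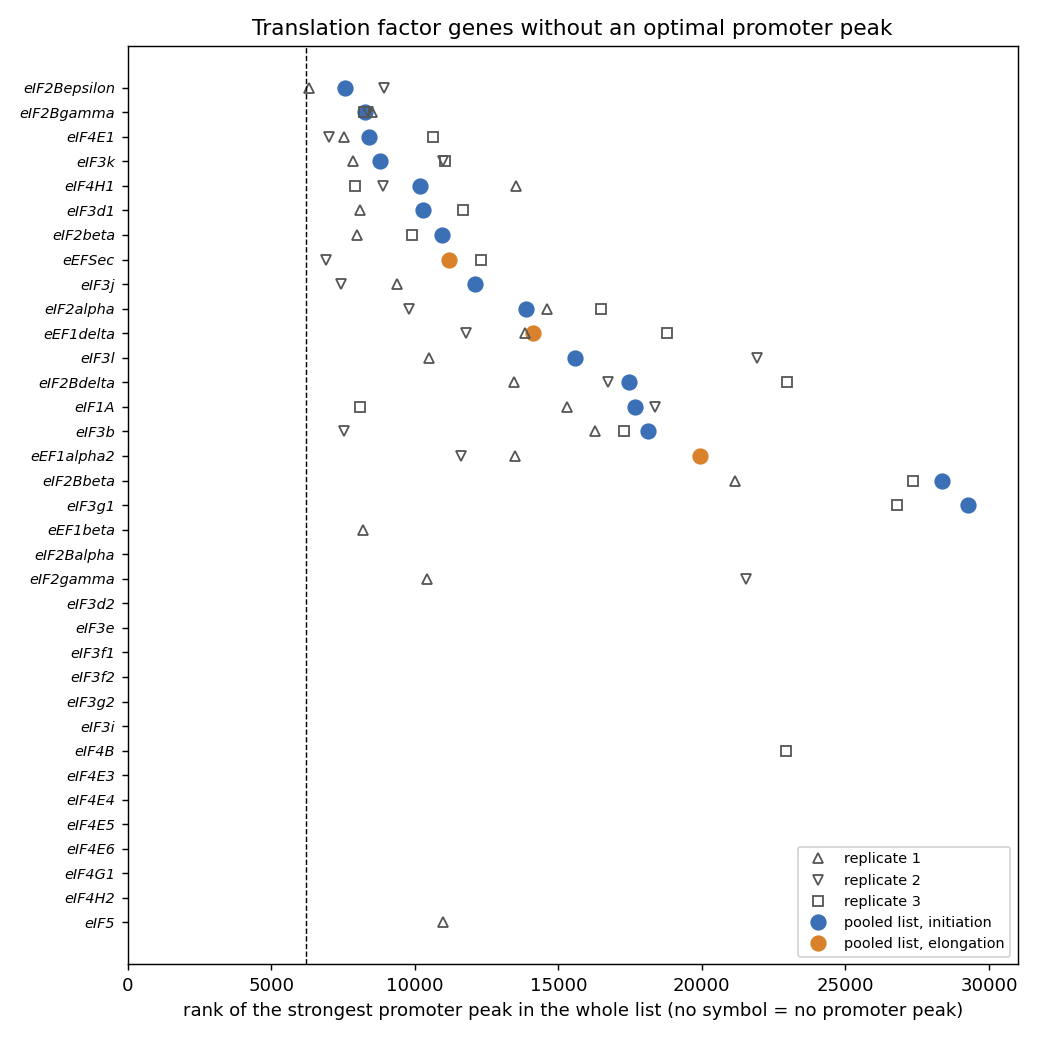
Rank of the strongest promoter peak in the whole pooled list (filled) and whole replicate lists (open symbols) at the 35 genes without an optimal promoter peak. All symbols lie right of the dashed line at 6221, and 13 genes have no promoter peak in any list.

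Below the optimal list, 18 of the 35 unbound members had a promoter peak in the whole pooled list of 30000 peaks, at a median rank of 12986. Another 4 had one in a replicate list but not in the pooled list, and 13 had none in any list. Counting the whole pooled list, 37 of 54 members (68.5%) had a promoter peak, beside 48.1% of all protein-coding genes. Of initiation factor genes it was 28 of 44, of elongation factor genes 7 of 8.

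Duplicated factors were compared copy by copy. Of the 7 lowest-numbered copies (eIF3d1, eIF3f1, eIF3g1, eIF4E1, eIF4G1, eIF4H1 and eEF1alpha1) eEF1alpha1 was bound, and of the 11 later-numbered copies eIF4E7 and eIF4G2 were, beside 21.6% of all genes. In the whole pooled list, 5 of the 7 lowest-numbered and 3 of the 11 later-numbered copies had a promoter peak, beside 48.1% of all genes. The later-numbered ones were eIF4E7, eIF4G2 and eEF1alpha2. At eEF1alpha2, the second gene for the tRNA-delivering factor, the pooled rank was 19926, the ranks in replicates 1 and 2 were 13496 and 11614, and replicate 3 had none. eIF4E3, known as a testis copy in flies, had none in any list. Of the cap-binding family, eIF4EHP and eIF4E7 had optimal promoter peaks, and eIF4E1, eIF4E3, eIF4E4, eIF4E5 and eIF4E6 had none.

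Signal at the bound members was near the middle of the list. Their median rank was 3076 and their range 481 to 5104, beside a median of 2937 for all 3017 bound protein-coding genes. The members' median signal was 1.01 times the list median. Of its 3 replicate ranks, the highest came from replicate 3 at 13 of the 19 genes, and from replicates 1 and 2 at 3 each. The same count was not made over all bound protein-coding genes, so it is not shown to be particular to the members. Replicate 3 also held the largest share of all protein-coding genes (22.6%, beside 21.1% and 19.0% in replicates 1 and 2). The part of library differences in these ranks was not tested.

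Summits at the bound members lay close to start sites. The median position was -44 bp from the TSS, beside -135 bp for all bound protein-coding genes. Within 100 bp of a TSS lay 11 of 19 (57.9%), beside 32.8% of all bound genes, and 15 of 19 (78.9%) were upstream, beside 84.4%. Intergenic sequence and 5' UTR held 7 summits each, introns 4 and another exon 1. In the whole replicate lists, summits of any rank lay within 100 bp of the optimal one at 17, 19 and 19 genes, at a median distance of 12, 8 and 8 bp. The 2 exceptions, both in replicate 1, were eIF3h and eRF3. Neither these counts nor those of summit location were made over all bound protein-coding genes, so they are not shown to be particular to the members.

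**Figure D4:**
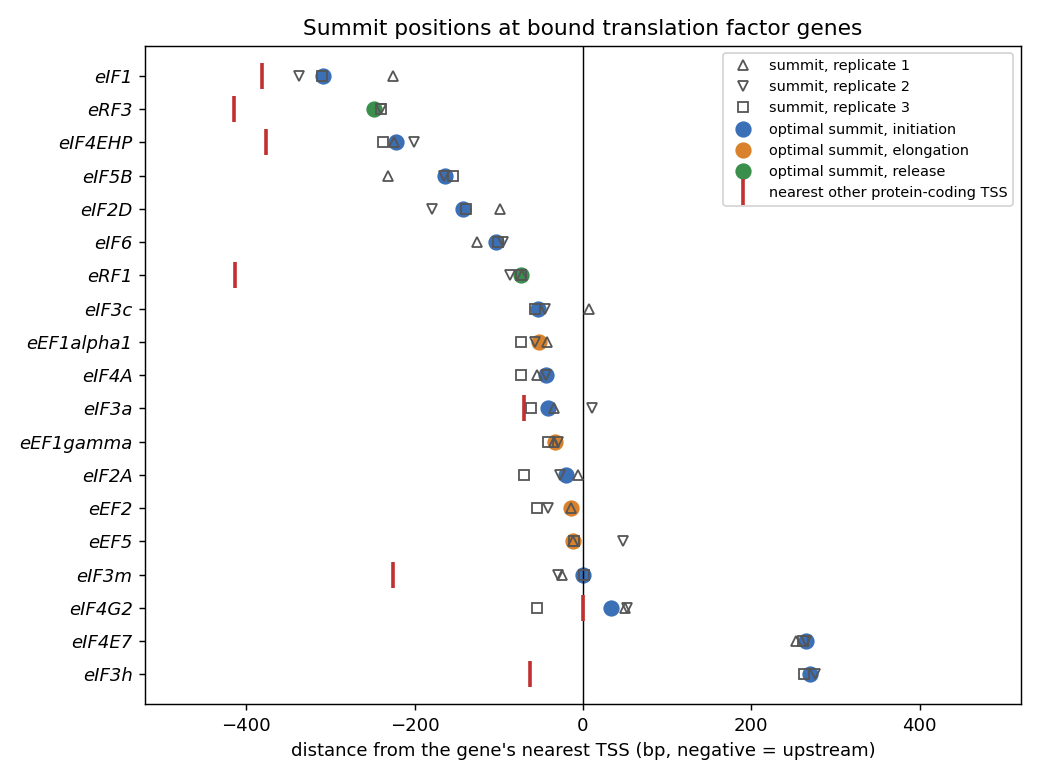
Distance of the summit from the nearest TSS of the gene (bp, negative is upstream) at the 19 bound genes, for the optimal list (filled) and the nearest summit within 100 bp in the whole replicate lists (open symbols), with red bars for the nearest other protein-coding TSS within 500 bp of the summit. Summits gather just upstream of 0, with a median of -44 bp, and eIF4E7 and eIF3h stand apart at 265 and 270 bp downstream.

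At 8 of the 19 genes another protein-coding gene had a TSS within 500 bp of the summit (42.1%, beside 50.1% of all bound genes). At 7 the other gene was read in the opposite direction, and eIF4G2 shared its start site. At 4 genes, eIF4EHP, eIF1, eRF3 and eIF3a, the other TSS was nearer to the strongest peak, so these peaks are uncertain as to gene. At the other 15 (78.9%) no other TSS was nearer than the gene's own, beside 76.1% of all bound genes. eIF1 and eRF3 each held a further optimal peak near their own TSS. When a peak counted for the nearest protein-coding gene alone, eIF4EHP, eIF3a and eIF4G2 were not bound. The bound share also varied with the number of annotated TSSs. Of members with 1 TSS 6 of 32 were bound (18.8%, beside 16.2% of all such genes), and of members with 2 or more 13 of 22 (59.1%, beside 36.7%). Members had 2 or more TSSs in 40.7% of cases, beside 26.5% of all genes. Where no other protein-coding TSS lay within 500 bp of the gene's own, 9 of 31 members (29.0%) were bound, beside 15.3% of all such genes. Where one did, 10 of 23 members (43.5%) were bound, beside 35.7%.

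The CCAAT box lay within 50 bp of the summit at 4 of the 19 genes (21.1%), eIF4EHP, eIF6, eIF4E7 and eIF2A, beside 24.1% of the strongest promoter peaks of all bound genes. Within 100 bp it lay at 5 of 19 (26.3%), beside 39.1%. These 4 include the 3 highest-ranked members. From 250 bp before to 50 bp after a TSS, CCAAT on either strand was found in 25 of 54 members (46.3%), beside 53.4% of all protein-coding genes. Of the 25 members with it 9 were bound (36.0%) and of the 29 without it 10 (34.5%). Among all genes 24.0% with CCAAT and 19.0% without it were bound.

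DRE (TATCGATA, which reads the same on both strands) was found in that window in 16 of 54 members (29.6%), beside 10.2% of all protein-coding genes and 30.1% of the 93 cytosolic ribosomal protein genes. It lay within 50 bp of the summit at 3 of 19 bound members (15.8%), eEF1gamma, eIF1 and eIF3a as printed above, beside 3.58% of all bound genes. Of the members with DRE 7 of 16 were bound (43.8%) and of those without it 12 of 38 (31.6%), beside 31.2% and 20.5% of all genes. GGTCACAC, the core of the promoter element Motif 1, searched on both strands, was found in 9 of 54 members (16.7%), beside 8.71% of all genes. Of members with it 3 of 9 were bound (33.3%) and of those without it 16 of 45 (35.6%), beside 33.7% and 20.5% of all genes. It lay at the summits of eEF1alpha1 and eIF2A (2 of 19, beside 2.45% of all bound genes). GAGAG was at 2 of 19 summits, TATAAA at 4 and CACGTG at none, beside 14.3%, 22.4% and 1.16%. Median GC content within 50 bp of the summit was 45.5% at bound members and 33.7% at all bound genes. It ran from 18.8% at eRF3 to 61.4% at eIF4A.

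The pyrimidine element was searched by the letters CTTT on the gene strand, starting within 5 bp of an annotated TSS. It was found in 7 of 54 members (13.0%), beside 8.07% of all genes and 62.4% of cytosolic ribosomal protein genes. Of these 7, eEF1alpha1, eEF2, eEF5, eIF3m and eIF4A were bound, and eIF3f1 and eIF3i were not (71.4% bound, beside 30.7% of all genes with these letters). Of the 47 members without them 14 were bound (29.8%, beside 20.8% of all such genes). The longer TTCTTT was found in eEF5 alone, and the initiator letters TCAGT in 2 members (3.70%, beside 15% of all genes), eIF2gamma and eEF1alpha2. A match of so few letters is a description and not a site.

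The cytosolic ribosomal protein genes, whose products the factors work on, were bound in 72 of 93 cases (77.4%), mitochondrial ribosomal protein genes in 24 of 73 (32.9%) and aminoacyl-tRNA synthetase genes in 8 of 32, beside the 19 of 54 translation factor genes and 21.6% of all protein-coding genes. The median summit position was -17.5 bp for the first, -136.5 bp for the second and -181 bp for the third. With -44 bp, the bound translation factor genes lay between the first group and the other 2. These differences were not tested.

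Other genes around the factors were taken from lists of regulators. Of 18 genes that control initiation 4 were bound (22.2%). These were PEK and Gcn2, which encode eIF2alpha kinases, at ranks 2877 and 5770, Lk6, which encodes an eIF4E kinase, at 3746, and Thor, which encodes the eIF4E-binding repressor, at 4832. The other 14 were 4E-T, DENR, MCTS1, NAT1, PPP1R15, Paip2, Pdcd4, S6k, bel, crc, cup, mxt, pAbp and vas, and the share bound was near that of all genes. Of 10 genes that modify elongation factors, recycle ribosomes or rescue stalled ones 5 were bound. Dph4, Dph2 and Dph1, of the diphthamide pathway that modifies eEF2, had ranks 1237, 2049 and 2842, pelo, a rescue factor gene, 2628, and nero, which completes hypusine on eEF5, 5425. Of 9 mitochondrial translation factor genes mRF1 was bound, at rank 991. All 3 lists stand beside the 21.6% of all protein-coding genes.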

How the data were processed

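Peak lists of 3 Nf-YB-GFP embryo ChIP replicates were used, with a pooled list and an optimal list. Per the labels the assembly is dm6. Per the readme texts deposited with the samples, the authors took peaks from each replicate's alignment with 1 control alignment, took pooled peaks from all 3 replicates with the control, and derived the optimal list by the irreproducible discovery rate. The sources used here name no aligner, peak caller or threshold. The deposited signal is the authors' value for each peak and was used to rank peaks of the same list. An alternative order used the authors' −log10 q-value, and 91.2% of optimal peaks share its highest value. The deposited summit is the distance from the interval's start. Read depth is unknown from these lists.

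Genes and TSSs came from Ensembl release 115 on 6 arms (18164 genes, transposable elements left out) and sequence from the RefSeq copy of the assembly. Every peak lies inside its arm there. Each replicate list holds 30000 peaks and was compared at its 6221 highest. Shares have exact 95% intervals (Clopper-Pearson), which reflect the number of genes and no other error. The search was tested on simulated data with planted summits, in Python 3.11.15 with pandas 2.3.3, numpy 2.4.6 and scipy 1.17.1. Every member is named, and bound members are given with their optimal promoter peaks. The members and lists were chosen with earlier results of these data known. Of the symbols listed for other translation genes, 1 in each of 3 lists matched no single gene and was left out. Alternatives changed the window, peak subset, replicate, TSS choice, assignment, ranking and motif window.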

Additional observations from a re-analysis of the deposited data

How the results depend on the processing

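The count of 19 bound members was 18 with a window of 250 bp, 20 with 1000 bp (eIF2Bbeta added), 19 by interval midpoints, 18 with the most upstream TSS alone (eIF4A lost) and 16 when a peak counted for the nearest protein-coding gene alone, beside 17.6%, 24.8%, 21.6%, 19.1% and 16.4% of all genes. Among the 3110 peaks with the highest signal 10 members were bound (11.5% of all genes), with 7 initiation, 2 elongation and 1 release factor genes. With optimal peaks that had a summit within 100 bp in all 3 replicates 12 were (12.3% of all genes), with 8 initiation and 1 release factor genes. Leaving out 1 replicate kept the optimal peaks with such a summit in both remaining replicates. A peak with such a summit in a single replicate, as at eIF2D, was thus lost each time. This rule gave 13 to 15 members (13.8% to 15.1% of all genes), 9 to 10 initiation, 3 to 4 elongation and 1 to 2 release factor genes. These settings can only remove peaks. Of the release factors eRF3 was the one lost without replicate 2 or 3. Later-numbered copies numbered 1 in place of 2 with 250 bp, among the 3110 highest, in all 3 replicates and by nearest gene, and 1 to 2 without 1 replicate. Bound under all 10 settings were eEF1gamma, eEF2, eIF1, eIF3h and eIF6. Per replicate, 9 members were bound with the 3110 highest peaks and 35.3 in whole lists, in place of 16.7 (10.8%, 47.9% and 20.9% of all genes), and 16.0 to 17.0 without 1 replicate. The median summit position was -71.5 bp in replicate 3 in place of -44 bp, and the median rank there 2589 in place of 3076; the cause was not tested. CCAAT was at 2 summits within 25 bp (14% of all bound genes), in place of 4. Depth is unknown, so absence from the lists does not show absence of binding.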
